A study of Mus musculus with 2 samples.

Results

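The SNARE core genes of neurotransmitter release were described in left cerebral cortex of females of the strain B6CASTF1/J, hybrids from crossing C57BL/6J with CAST/EiJ mice, at an age of 14 days. The set was fixed by gene symbol and holds 8 of the 55536 annotated genes: Snap25, Snap23, Snap29, Snap47, Stx1a, Vamp1, Vamp2 and Napb, with 41 annotated transcripts in all. The data were 2 libraries of 1 group, replicate 1 and replicate 2, each made from 300 ng of total RNA depleted of ribosomal RNA, with ERCC spike-ins, which are synthetic RNAs of known amount. There was no treatment, mutant or second age, so the comparisons are between genes, between transcripts of a gene and between the 2 libraries. The labels call the libraries biological replicates but give both the same donor entry. Their shared description mentions 3 females, yet the tissue label mentions 3 females for replicate 1 and a single female for replicate 2, so the number of mice behind a library is unknown. The tables give 1 value per gene and do not separate the parental alleles.

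SNARE proteins bring a vesicle and its target membrane together by zipping into a helical bundle. In synapses, the vesicle protein VAMP2 (synaptobrevin 2) pairs with syntaxin 1 and SNAP-25 of the plasma membrane, SNAP-25 giving a pair of helices to the bundle. After fusion, the ATPase NSF and its SNAP adaptors, of which Napb encodes the brain form, take the bundle apart. Napb is therefore a partner of SNAREs and not a SNARE, and its product is unrelated to SNAP-25 in spite of the name.

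The best known splice choice of the set is in Snap25, where a transcript uses one or the other of 2 neighbouring copies of exon 5. SNAP-25a, with the upstream copy, is the early form in rodent brain, and SNAP-25b, with the downstream copy, gains ground after birth. In the GENCODE M21 models, Snap25-202 held the upstream copy (mm10 chr2:136769743-136769860, plus strand) and Snap25-201 the downstream copy (chr2:136770057-136770174). Both are 118 bases long and lie 196 bases apart. They are printed 5′ to 3′ because the transcript shares below turn on them, with capitals at the bases that differ between the copies.
Snap25-202 exon 5: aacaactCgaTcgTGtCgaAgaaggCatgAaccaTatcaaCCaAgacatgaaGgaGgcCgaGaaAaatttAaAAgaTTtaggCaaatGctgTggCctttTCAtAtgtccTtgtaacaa
Snap25-201 exon 5: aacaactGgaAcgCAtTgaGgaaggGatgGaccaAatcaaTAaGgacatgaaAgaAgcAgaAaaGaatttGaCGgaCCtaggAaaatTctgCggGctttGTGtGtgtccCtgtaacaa
The copies differ at 31 bases, 73.7% identity. Over the 206 codons of each reading frame, 26 codons differ, of which 17 are synonymous and 9 change the amino acid, all between codons 58 and 89. The models also differ at their ends. Snap25-202 is annotated as starting 25 bases later and ending 1077 bases earlier, and is 1014 bases long, against 2116 bases for Snap25-201. A share of Snap25-202 is therefore a share of that model and not of exon 5 alone, because a read beyond its annotated end can be given only to Snap25-201. Reads over exon 5 itself were not analysed here.

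**Figure D1:**
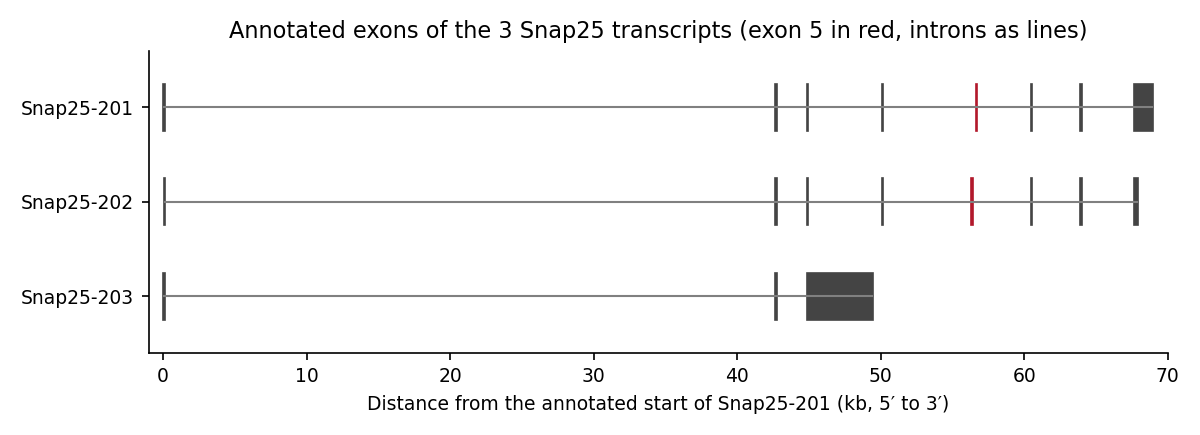
Annotated exons of the 3 Snap25 transcripts against the distance from the start of Snap25-201 in kb, with boxes for exons and lines for introns. Snap25-201 and Snap25-202 have 8 exons each and differ in which copy of exon 5 (red) they use and in the length of the last exon, while the retained-intron transcript Snap25-203 runs on beyond exon 3.

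Snap25 was the most abundant of the 8 genes, and it outweighed its paralogues. The gene (chr2:136713453-136782428, plus strand) had 843 TPM in replicate 1 and 775 TPM in replicate 2, a mean of 809 ± 47.6 TPM (SD, n = 2), and ranked 29 among 22015 nuclear protein-coding genes. TPM, transcripts per 1000000, is a level corrected for transcript length, so it can be compared between genes. It is taken from the gene tables unless another table is named. These are levels of bulk tissue, in which fewer cells of a type and less RNA per cell cannot be told apart. The difference between the libraries was small beside the distance to any paralogue.

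Snap47, whose product is an atypical member of the family found on internal membranes, came next with 188 TPM in replicate 1 and 184 TPM in replicate 2 (186 ± 2.69 TPM, chr11:59407134-59451186, minus strand). Snap29, which encodes a SNAP-25 relative of autophagosome and endosome fusion, had 10.8 and 12.6 TPM (11.7 ± 1.32 TPM, chr16:17405986-17430827, plus strand). Snap23, the form used for exocytosis in most other tissues, had 7.28 and 7.94 TPM (7.61 ± 0.467 TPM, chr2:120567671-120601255, plus strand). The values of the 4 genes did not overlap between the libraries. Snap29 rests on 774 counts in replicate 1 and 869 in replicate 2, and Snap23 on 274 and 249, whereas Snap25 had 31715 and 27665.

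Of the TPM summed over the 4 genes, Snap25 held 80.4% in replicate 1 and 79.1% in replicate 2, a mean of 79.8% ± 0.879 (SD, n = 2). Snap47 held 18.3% ± 0.612, Snap29 1.16% ± 0.185 and Snap23 0.752% ± 0.0820. Snap29 and Snap23 were thus a small part of the family RNA. The ratio of Snap25 over Snap23 was 114-fold in replicate 1 and 96.5-fold in replicate 2, a log2 ratio of 6.71 ± 0.17 (SD, n = 2). The ratio over Snap29 was 77.5-fold and 60.9-fold, a log2 ratio of 6.10 ± 0.25. Over Snap47 it was 4.49-fold and 4.22-fold, a log2 ratio of 2.12 ± 0.06. All 3 ratios were many times larger than their SD. No test was run on any ratio in the set, since an exact test over 2 libraries cannot give a p below 0.5.

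The authors' second transcript table, made from the reads and summed per gene, gave Snap25 a lower lead over 2 of its paralogues. The log2 ratio of Snap25 over Snap47 was 1.39 ± 0.10 there, 2.63-fold, and that over Snap23 was 6.04 ± 0.14, 65.6-fold. The log2 ratio over Snap29 was 6.27 ± 0.21. The share of Snap25 in the family was 71.0% ± 1.31 in that table and the share of Snap47 27.0% ± 1.32. Snap25 itself kept rank 29 with 1292 TPM in replicate 1 and 1205 TPM in replicate 2.

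**Figure D2:**
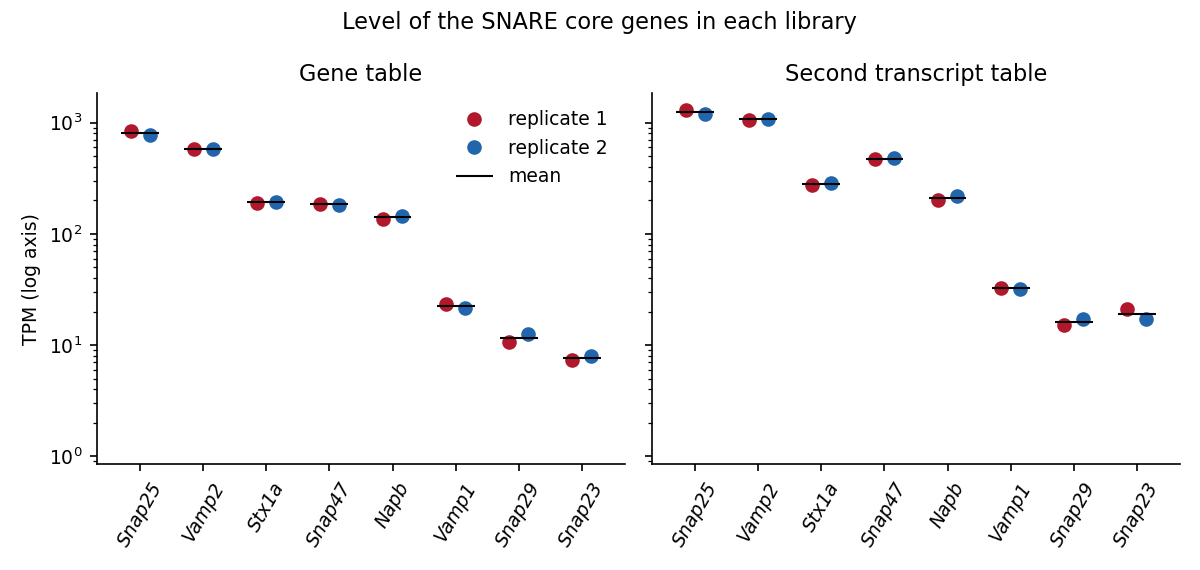
TPM of the 8 genes on a log axis in replicate 1 (red) and replicate 2 (blue), with the mean as a line, from the gene tables (left) and from the second transcript table (right). Snap25 and Vamp2 lead in both panels, while Snap47 is level with Stx1a on the left and above it on the right.

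Stx1a, the plasma membrane syntaxin that binds SNAP-25 and VAMP2 (chr5:135023482-135051100, plus strand), had 189 TPM in replicate 1 and 195 TPM in replicate 2, a mean of 192 ± 4.73 TPM and rank 384. It stood well below both partners. Snap25 exceeded Stx1a 4.46-fold in replicate 1 and 3.97-fold in replicate 2, and Vamp2 exceeded Stx1a 3.09-fold and 2.95-fold. Stx1a and Snap47 were next to each other in the order of levels, 1.04-fold apart, a gap in means smaller than the difference between the 2 libraries in Stx1a. In the second transcript table their order turned round, with 275 and 287 TPM for Stx1a against 469 and 481 TPM for Snap47.

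Vamp2 came after Snap25 as the second most abundant gene of the set. The gene (chr11:69088490-69092384, plus strand) had 584 TPM in replicate 1 and 577 TPM in replicate 2 (581 ± 4.77 TPM, rank 54). Snap25 exceeded Vamp2 1.44-fold and 1.34-fold, a log2 ratio of 0.48 ± 0.07. In the second table the log2 ratio was 0.22 ± 0.08, with Snap25 the higher in both libraries in either table.

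Vamp1, synaptobrevin 1, is the form known from brainstem, spinal cord and motor nerve terminals. The gene (chr6:125215551-125245964, plus strand) had 23.7 TPM in replicate 1 and 21.7 TPM in replicate 2 (22.7 ± 1.36 TPM, rank 5088). Vamp2 made up 96.2% ± 0.187 of the TPM of the pair. Vamp2 over Vamp1 was 24.6-fold in replicate 1 and 26.4-fold in replicate 2, a log2 ratio of 4.67 ± 0.07, and in the second table the ratio was wider, at 5.04 ± 0.05. The genes remain alike in the part that joins the bundle. Exon 3 of Vamp1-201 (chr6:125218911-125219069, plus strand) and of Vamp2-201 (chr11:69089731-69089889, plus strand) are both 159 bases long, and are printed here to show how much sequence separates 2 genes at such different levels, with capitals at differing bases.
Vamp1-201 exon 3: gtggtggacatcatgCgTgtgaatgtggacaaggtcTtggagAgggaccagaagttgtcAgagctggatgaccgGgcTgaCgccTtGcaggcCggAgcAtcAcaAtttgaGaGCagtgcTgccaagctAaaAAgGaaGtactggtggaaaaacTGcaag
Vamp2-201 exon 3: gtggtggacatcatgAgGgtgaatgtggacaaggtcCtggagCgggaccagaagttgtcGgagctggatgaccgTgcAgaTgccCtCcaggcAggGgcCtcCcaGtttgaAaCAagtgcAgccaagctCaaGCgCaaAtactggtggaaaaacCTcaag
They differ at 26 bases, 83.6% identity, and 2 of the 53 codons change the amino acid.

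Napb (chr2:148693985-148732467, minus strand), the brain SNAP adaptor of NSF, had 137 TPM in replicate 1 and 146 TPM in replicate 2 (142 ± 6.54 TPM, rank 636). It was set against the other SNAP adaptor genes. Napa, which encodes the ubiquitous alpha form, had 110 and 114 TPM, and Napg, which encodes the gamma form, had 62.8 and 67.0 TPM. Napb thus held 44.4% ± 0.362 of the TPM of the 3 genes, Napa 35.2% ± 0.526 and Napg 20.4% ± 0.164. Napb over Napg was 2.18-fold in both libraries. Napb over Napa was 1.24-fold in replicate 1 and 1.28-fold in replicate 2, but in the second table it was 0.9499-fold and 1.12-fold, so the order of Napb and Napa was not the same in the 2 libraries there. Nsf itself had 401 TPM in each library.

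In the gene tables the order of levels was thus Snap25, Vamp2, Stx1a, Snap47, Napb, Vamp1, Snap29 and Snap23, and the ranges of neighbours over the 2 libraries did not overlap. The step of 6.24-fold between Napb and Vamp1 split the set into 5 genes at 137 TPM or more and 3 at 23.7 TPM or less in each library. In the second table the same 5 genes were above the same 3. The ranges of Snap23 and Snap29 overlapped there, with 21.01 and 17.0 TPM for Snap23 against 15.1 and 17.3 TPM for Snap29. The second table gave TPM 1.38- to 1.54-fold those of the gene tables for Snap29, Vamp1, Stx1a, Napb and Snap25. For Vamp2 the factor was 1.84, for Snap23 2.50 and for Snap47 2.56, and the tables also divided the transcripts of these genes differently, as given below. Vamp1 was divided differently to a lesser extent, with a mean share of Vamp1-201 of 77.4% in the first transcript table and 68.0% in the second. The part of this division in the factors was not tested.

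Snap25-201, the model with the downstream exon 5, was the main Snap25 transcript in both libraries and both tables. It had 629 TPM in replicate 1 and 563 TPM in replicate 2, and Snap25-202 had 210 and 208 TPM. Snap25-202 held 24.9% of the gene's TPM in replicate 1 and 26.9% in replicate 2, a mean of 25.9% ± 1.38 (SD, n = 2), and Snap25-201 exceeded it 3.00-fold and 2.70-fold. In the second table Snap25-202 held 28.1% and 29.1%, a mean of 28.6% ± 0.701. As a share of expected counts, in which the longer model weighs more, it held 13.01% in replicate 1 (Wilson 95% interval 12.6 to 13.4%) and 14.2% in replicate 2 (13.8 to 14.6%). These intervals cover counting error only. The authors' posterior SD of the Snap25-202 count was 71.8 reads of 4125 in replicate 1 and 69.9 of 3920 in replicate 2, which covers how reads shared by the models were divided.

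Vamp1 also had a second coding transcript of some weight. Vamp1-201 held 78.7% of the gene's TPM in replicate 1 and 76.2% in replicate 2, and Vamp1-203 held 16.9% and 20.1%, a mean of 18.5% ± 2.20 (SD, n = 2), or 23.4% ± 1.21 in the second table. The transcripts part inside the membrane anchor at the end of the protein. Vamp1-201 splices from exon 4 to exon 5, while Vamp1-203 reads on past that splice site to its own stop codon. The coding ends from the start of exon 4 to the stop codon are printed because the transcripts differ in protein only here, with capitals from the first base after the 52 shared ones. That of Vamp1-201 is spliced over chr6:125219586-125220066 and that of Vamp1-203 is unspliced at chr6:125219586-125219651, plus strand.
Vamp1-201 coding end: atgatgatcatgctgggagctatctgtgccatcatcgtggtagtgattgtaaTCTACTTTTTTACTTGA
Vamp1-203 coding end: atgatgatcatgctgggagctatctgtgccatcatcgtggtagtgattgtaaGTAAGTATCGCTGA
The reading frames hold 118 codons in Vamp1-201 and 117 in Vamp1-203. The estimate rests on few reads: Vamp1-203 had 251 expected counts in replicate 1 and 261 in replicate 2, with a posterior SD of 29.4 and 31.3 reads. Vamp1-205, a processed transcript with no reading frame, held 0.930% and 1.43% in the first table and 2.94% and 7.11% in the second.

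A single transcript held most of the TPM of Napb, Snap29, Stx1a, Vamp2 and Snap47 in the first table, and for Vamp2 and Snap47 the second table differed. Napb-201 held 98.8% of the gene's TPM in replicate 1 and 98.5% in replicate 2, and Snap29 has a single annotated transcript, Snap29-201. Stx1a-201 held 92.1% and 89.4%, and Stx1a-203, a processed transcript with no reading frame, 3.43% and 5.66%. For these 3 genes the main transcript held nearly the same share in both tables, which was not so for Vamp2. Vamp2-201 held 97.4% in replicate 1 and 96.3% in replicate 2 of the first table, but 75.6% and 73.8% in the second. The remainder went to Vamp2-204, a processed transcript of 918 bases, with 0.699% and 0.896% in the first table and 23.4% and 25.04% in the second, where it had 2496 and 2534 estimated counts.

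The tables also divided Snap47 differently. Snap47-201 held 97.2% of the gene's TPM in each library in the first table, against 52.7% in replicate 1 and 50.3% in replicate 2 in the second. Snap47-206, a coding model of 502 bases, held 0.139% and 0.588% in the first table and 38.8% and 36.3% in the second. Snap47-204, of 615 bases, held 0.464% and 0.332% in the first table and 8.01% and 12.8% in the second. Both short models lie within the span of Snap47-201. In the second table Snap47-206 took its share of TPM with 540 estimated counts in replicate 1 and 489 in replicate 2, 7.30% and 7.03% of the gene's counts. The tables also assume different fragment lengths. The difference between annotated and effective length was 99 bases in the first tables, and 341 bases in replicate 1 and 347 bases in replicate 2 in the second. In either, a read counts for more TPM the shorter its transcript is, and the larger difference makes this effect stronger in the second. The part of this in the disagreement was not tested.

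Snap23 shares differed widely between the tables and rest on few reads. Snap23-202 held 55.2% of the gene's TPM in replicate 1 and 44.96% in replicate 2 in the first table, and 1.61e-05% and 17.6% in the second. Snap23-201, which has the same reading frame length of 210 codons, was listed at 0 in both libraries in the first table and held 19.2% and 0.0332% in the second. The posterior SD of the Snap23-202 count was 25.8 of 226 reads in replicate 1 and 31.7 of 193 reads in replicate 2. The other 7 Snap23 transcripts, Snap23-203 to Snap23-209, each held between 0 and 27.2% of TPM in some library or table.

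**Figure D3:**
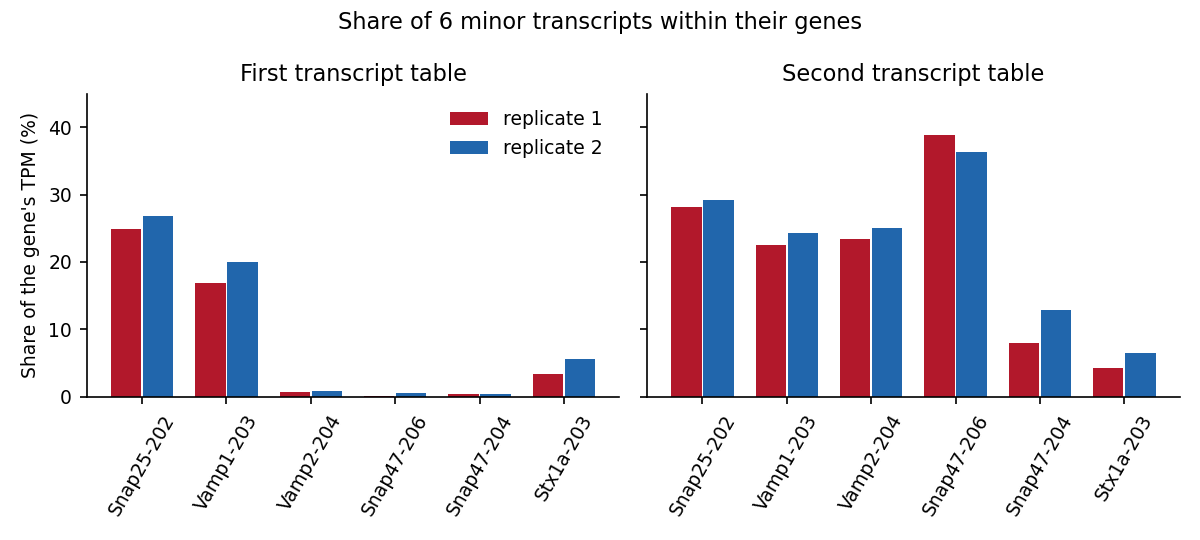
Share of a gene's TPM held by 6 minor transcripts in replicate 1 (red) and replicate 2 (blue), from the first (left) and second (right) transcript table. Snap25-202 and Vamp1-203 stand at similar heights in both panels, whereas Vamp2-204, Snap47-206 and Snap47-204 are under 1% on the left and between 8.01% and 38.8% on the right.

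The 2 libraries were compared gene by gene to see how stable the set is between samples of the same tissue. In a two-sided exact binomial test on expected counts with TMM library sizes and Benjamini-Hochberg adjustment over 18887 genes, 4 of the 8 members passed an adjusted p of 0.05, all with higher values in replicate 1. The background of the same test was 11.4% of genes called higher and 8.88% called lower in replicate 1. The test takes counting error alone, so a call says that these 2 libraries differ and nothing about other mice. CPM below stands for counts per 1000000 of the TMM library size.

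Snap25 had 971 CPM in replicate 1 and 847 CPM in replicate 2, which is 0.20 ± 0.01 on the log2 scale (counting SE), with an adjusted p of 5.01e-59 in the exact binomial test. Vamp2 had 794 and 746 CPM, a log2 ratio of 0.09 ± 0.01 (exact binomial test, adjusted p = 1.3e-10). These are the genes of the set with the most counts and the smallest counting errors. Snap47 had 217 and 204 CPM, also 0.09, with an SE of 0.02 (same test, adjusted p = 0.00261). Vamp1 had 42.1 and 37.6 CPM, a log2 ratio of 0.16 ± 0.06 (same test, adjusted p = 0.0236). The folds of these 4 genes ran from 1.06 to 1.15.

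The remaining members did not pass the same test. Stx1a had 247 CPM in replicate 1 and 241 CPM in replicate 2, a log2 ratio of 0.03 ± 0.02 (exact binomial test, adjusted p = 0.348). Napb had 387 and 395 CPM, a log2 ratio of -0.03 ± 0.02 (same test, adjusted p = 0.238). Snap29 had 23.7 and 26.6 CPM, -0.16 ± 0.07 (same test, adjusted p = 0.0816), and Snap23 8.39 and 7.63 CPM, 0.13 ± 0.13 (adjusted p = 0.527). With 274 and 249 counts, a difference of the size seen in Snap25 was not detectable for Snap23.

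The difference between the libraries moved with the level of a gene. Among the 141 genes with a mean log2 CPM of 9 to 10, which include Snap25 and Vamp2, the median log2 ratio was 0.09 and 77.3% were called higher in replicate 1. Vamp2 lay at that median. Snap25 lay above it and below the 95th percentile of 0.22. Among the 926 genes at 7 to 8, which include Snap47 and Stx1a, the median was 0.06 and 44.4% were called higher. Among the 415 genes at 8 to 9, which include Napb, the median was 0.07, 61.7% were called higher and the 5th percentile was -0.09, so that Napb at -0.03 was within the range of its neighbours. Among the 2338 genes at 5 to 6, where Vamp1 lies, the median was 0.01 and the 95th percentile 0.21. No member lay outside the 5th to 95th percentile of genes at its level.

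**Figure D4:**
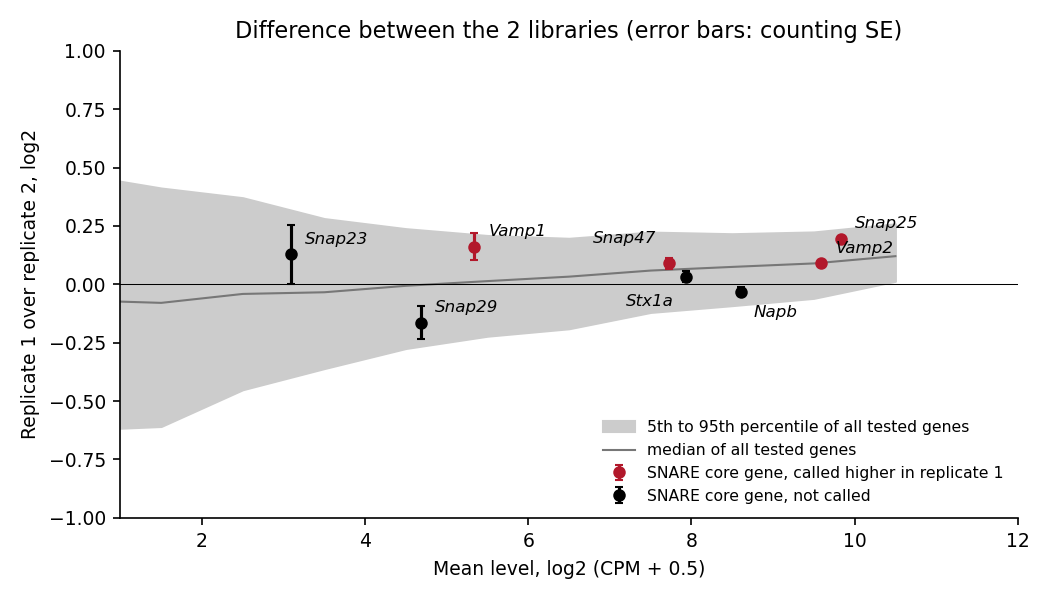
Log2 ratio of replicate 1 over replicate 2 for the 8 genes against their mean log2 (CPM + 0.5), with counting SE as error bars and red for genes called higher in replicate 1. The grey band spans the 5th to 95th percentile of all tested genes in steps of 1 log2 unit and the line is their median, which rises from below 0 at low levels to 0.12 at a log2 CPM of 10 to 11.

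The calls also depended on how the libraries were scaled. With total gene counts the median of all genes moved by -0.06 and Snap25 was the only member still called higher, at 0.14, while Snap29 at -0.22 and Napb at -0.09 were called lower. With spike-in counts Snap25 (0.14) and Vamp2 (0.04) were called higher, and the same 2 genes lower. The sign of Stx1a turned to -0.03 and -0.02 under these scalings, neither of them called. In TPM of the gene tables, Stx1a (189 and 195) and Snap23 (7.28 and 7.94) were lower in replicate 1, the reverse of their CPM. In TPM of the second table, Vamp2 (1064 and 1076) and Snap47 (469 and 481) were lower in replicate 1 as well. Snap25 and Vamp1 were higher in replicate 1 in TPM of either table. When a dispersion of 0.01 between libraries was assumed, edgeR's exact test called 0 of the 8 members, with 0 at an unadjusted p under 0.05, and 82 genes higher and 100 lower in replicate 1 of all those tested.

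Markers of other cells and regions differed between the same libraries. The sum of the 5 myelinating oligodendrocyte markers was 1230 TPM in replicate 1 and 679 TPM in replicate 2, and 5 of 5 were called higher. The 4 striatum markers summed to 187 and 110 TPM, with 4 of 4 called higher. The 4 choroid plexus markers summed to 1.83 and 5.47 TPM, with 3 of 4 called lower. Lists of neurons and other glia differed less in their sums. The 6 neuron markers summed to 2896 and 2879 TPM, with 4 of 6 called higher and Snhg11 lower, and the 4 astrocyte markers to 546 and 551 TPM, with 1 called higher and 2 lower. The 4 microglia markers summed to 142.5 and 134 TPM, with 3 of 4 called higher. Of all genes tested, 11.4% were called higher and 8.88% lower. None of these markers was at 0. The lowest was Kcne2 of the choroid plexus list, with 0.06 and 0.31 TPM. The part of these cells in the differences of the SNARE genes was not tested.

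A larger part of the transcript shares than of the gene levels was called different between the libraries. Fisher's exact test of each transcript's counts against the rest of its gene, adjusted over 49811 transcripts, called 40.8% of them, so a single call says little. Of the 28 member transcripts tested, 11 were called. The count share of Snap25-201 was 85.9% in replicate 1 and 84.3% in replicate 2 (Fisher's exact test, adjusted p = 4.56e-07). That of Snap25-202 was lower in replicate 1 by 1.16 points (same test, adjusted p = 0.000189), and in the second table by 0.45 points, which was not called (adjusted p = 0.181). The shares of Vamp1-201 and Vamp1-203 were not called in either table.

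Transcripts annotated as retained introns, which keep intron sequence and code for no protein, had a lower share in replicate 1 for 6 of the 7 that were tested among the members, and 3 of the 6 were called. Of all 13078 retained-intron transcripts tested, 69.3% had a lower share in replicate 1 and 21.7% were called lower. Snap25-203 runs from exon 3 into the following intron. It had 352 counts in replicate 1 and 426 in replicate 2, 1.11% and 1.54% of the gene's counts (Fisher's exact test, adjusted p = 2.98e-05). Stx1a-205 had 222 and 302 counts, 2.75% and 3.84% (same test, adjusted p = 0.000582). Vamp2-203 had 32 and 55 counts, 0.123% and 0.226% (same test, adjusted p = 0.0197). Vamp2-205, Napb-203 and Snap23-207 were lower in replicate 1 without passing the test, and Snap23-205 was higher with 13 and 7 counts. From the second table, with 6 tested, 4 were lower and 2 were called, Snap25-203 and Stx1a-205.

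The set was then placed among other genes of the SNARE pathway. The 5 other plasma membrane syntaxins were all far below Stx1a. The highest was Stx4a, a syntaxin of constitutive exocytosis, with 26.1 TPM in replicate 1 and 23.8 TPM in replicate 2, and the lowest was Stx19, with 0.02 TPM in replicate 1 and listed at 0 in replicate 2. Stx11, a syntaxin of immune cells, had 0.19 and 0.10 TPM. Of the 4 tested, 0 were called different between the libraries in the exact binomial test and 1 had an unadjusted p under 0.05. With the assumed dispersion edgeR called 0. Over all genes the exact binomial test called 11.4% higher and 8.88% lower in replicate 1, which is also the background for the lists below.

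The 7 other R-SNAREs, the class of VAMP2, had a median of 16.1 TPM, all of them below Vamp2. Ykt6, of Golgi and vacuolar transport, was the highest with 50.7 TPM in replicate 1 and 47.1 TPM in replicate 2, and was called higher in replicate 1 at a log2 ratio of 0.15 ± 0.04 (exact binomial test, adjusted p = 0.00323). Vamp5, a form known from muscle, was the lowest with 1.17 and 2.00 TPM. Sec22b, of transport between endoplasmic reticulum and Golgi, was the only other one called, also higher. Vamp3, the form of most other tissues, had 16.3 and 15.9 TPM and exceeded neither Vamp1 nor Vamp2.

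Of the 17 listed endosomal and Golgi Q-SNAREs, 16 matched a row and all 16 were at 1 TPM or more, with a median of 24.4 TPM. They ranged from Bet1 (9.14 TPM in replicate 1 and 11.2 TPM in replicate 2) to Vti1b (97.8 and 90.8 TPM). The exact binomial test called 0 of the 16, with 3 at an unadjusted p under 0.05, edgeR with the assumed dispersion called 0, and the median log2 ratio was 0.01. In the disassembly list, Nsf and Napa were called higher in replicate 1, at log2 ratios of 0.08 ± 0.01 and 0.15 ± 0.03 of CPM, and Napg at -0.02 ± 0.03 was not. The TPM of Napa given above was lower in replicate 1, but in the second table Napa had 210 TPM in replicate 1 and 193 TPM in replicate 2. The sign of its difference thus depends on the scale and on the table.

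The 16 regulators and chaperones were a more abundant list, with a median of 112 TPM. Hspa8, the chaperone that acts with the cysteine string protein of synaptic vesicles, was the highest with 1008 TPM in replicate 1 and 1036 TPM in replicate 2. Unc13c, a vesicle priming factor, was the lowest with 10.1 and 11.5 TPM. Of the 16, 7 were called higher in replicate 1 and 2 lower. Cplx1, complexin 1, which binds the assembled bundle, had the largest called ratio, 0.21 ± 0.02 (exact binomial test, adjusted p = 4.1e-28). The 2 called lower were Unc13b and Unc13c, at log2 ratios of -0.11 and -0.14. Unc13a, a more abundant priming factor of the same family with 142 TPM in each library, was called higher, at a log2 ratio of 0.07. Over the 46 tested genes of all these lists, 11 were called higher and 2 lower, against 11.4% and 8.88% of all genes tested. Among all genes the share called higher rose with level, from 24.0% at a log2 CPM of 6 to 7 to 90.6% at 10 to 11. The part of level in the calls of these lists was not tested. The median log2 ratio was 0.09 over the 8 members, 0.04 over these 46 genes and -0.00097 over all genes tested.

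**Figure D5:**
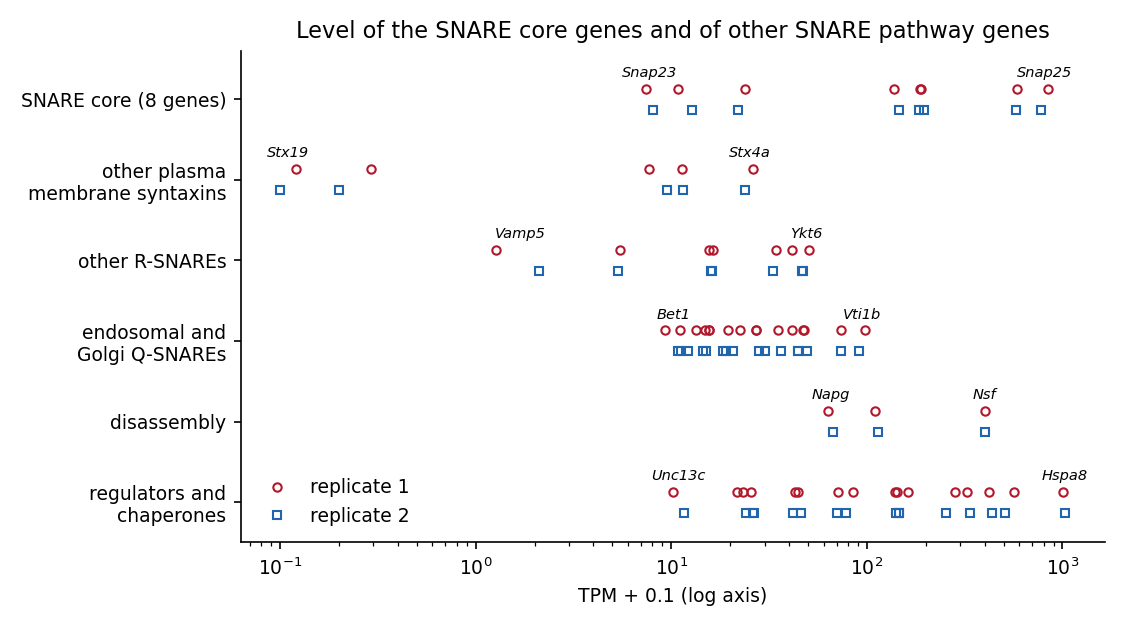
TPM + 0.1 on a log axis for the 8 SNARE core genes and 5 lists of other SNARE pathway genes, replicate 1 as red circles above replicate 2 as blue squares, with the highest and lowest gene of each row named. Snap25 lies above every other SNARE gene in the plot, and Hspa8, a chaperone, lies above Snap25.

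The genes whose levels in the 2 libraries were nearest to those of Snap25, by distance in log2 (TPM + 0.1), were Aldoa, Ndrg4 and Actg1, at distances of 0.07, 0.10 and 0.12. Those nearest to Vamp2 were Eef1a2, Tmsb4x and Cox4i1, at 0.02, 0.04 and 0.05. In the second table they were Atp5b, Atp6v0c and Ptms for Snap25 and Slc17a7, Chn1 and Rtn1 for Vamp2. With 2 libraries of 1 tissue this measures likeness of level only.

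Several members share their locus with another gene on the opposite strand, and the sources used here do not give the strand setting of the counting. The 5′ ends of Snap29 and Pi4ka overlap at chr16:17405986-17406314, while Snap29-201 is 3447 bases long. Pi4ka had 125 TPM in replicate 1 and 122 TPM in replicate 2, well above Snap29. The level of Snap29 is therefore uncertain to the extent that its reads lie in this overlap, which was not measured. Snap47 overlaps Jmjd4 (14.7 and 14.5 TPM), but only within the span of Snap47-203, listed at 0 in both libraries in the first transcript table. Vamp1 overlaps Tapbpl (1.22 and 1.36 TPM), Cd27 and Mir8113, all of them beyond the ends of Vamp1-201 and Vamp1-203. Snap25 overlaps a pseudogene, Gm14053, listed at 0 in both libraries. Stx1a, Snap23, Vamp2 and Napb overlap no other annotated gene.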

How the data were processed

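The data were total RNA libraries of left cerebral cortex, 33.4M expected counts in genes in replicate 1 and 32.0M in replicate 2, with 0.359% and 0.361% of all counts in spike-ins. Expected counts and estimated counts are the authors' unnormalised reads per gene or transcript, per the file headers, on mm10 with GENCODE M21, per the deposited text files. The sources used here name no aligner, counter or setting. TPM values were deposited too, scaled by the authors over all rows of a table. Numbered rows that name no gene held 1.49e-05% and 1.51e-05% of counts and were left out.

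The 8 genes and the gene lists were chosen with earlier results of these data known. All 8 matched 1 gene each. Genes were named as every member, each list's highest, lowest and most different called gene, the 3 nearest genes of Snap25 and Vamp2, and transcripts with 5% or more of their gene's TPM in either library or table; others named (Stx11, Sec22b, Vamp3, Unc13a, Unc13b and retained introns) were chosen after their values were seen. Stx10 matched no row. Log2 ratios between genes used TPM + 0.1 and are set against the SD over 2 libraries, which may be technical. Between libraries, rounded expected counts were tested with a two-sided exact binomial test (genes with 10 counts or more in a library, edgeR 4.0.16 TMM, log2 of CPM + 0.5) and, for transcript shares, Fisher's exact test (scipy 1.17.1), both with Benjamini-Hochberg adjustment. Both were checked on data simulated with counting error alone, so the check does not cover other variation between libraries. There a 1.5-fold change was called in 68% of genes, and an odds ratio of 1.5 in 26% of transcript shares. Sequences were read from the GENCODE M21 transcripts and not from the reads. Alternatives were other scalings, filters, pseudocounts, tables, DESeq2 1.42.0 size factors and an assumed dispersion.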

Additional observations from a re-analysis of the deposited data

How the results depend on the processing

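No paired analysis was possible because both libraries belong to 1 group, and leaving out a library leaves no difference between libraries to test. Leaving out 1 library leaves the other library's ratio or share, which is printed per library in the report and lies within 1 SD of the mean by construction. The second transcript table gave mean log2 ratios of 6.04 for Snap25 over Snap23, 1.39 over Snap47 and 0.22 over Vamp2, 5.04 for Vamp2 over Vamp1, 1.93 for Vamp2 over Stx1a, 0.047 for Napb over Napa and 0.72 for Napb over Napg. The last was 1.11 with a pseudocount of 1 TPM and 1.13 with none, beyond an SD that was very small. Snap25-202 held 28.6% in the second table and 13.6% of expected counts, and Vamp1-203 held 23.4% in the second table.

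Members called higher in replicate 1 numbered 1 with total gene counts, 2 with spike-ins and 0 with the assumed dispersion, and 2 were called lower with either total or spike-in counts. Pathway genes called higher numbered 5, 5 and 0, and those called lower 5, 4 and 0, with 1 lower in the absence of a count filter and 1 in the second table. Over all genes 1145, 1229 and 82 were called higher and 2733, 2570 and 100 lower. The difference of Stx1a turned to -0.025 and -0.019 with total and spike-in counts, and share differences turned for Snap47-204 (-1.52 points), Snap23-202 (-41.8) and Snap23-207 (0.52) in the second table. The cause was not tested for any of these. Snap23 and Vamp1-203 rest on few reads, and the part of depth in their values was not tested.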
